A study of Homo sapiens with 6 samples.

Results

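The genes described here are protein-coding genes by which the castration-resistant prostate cancer lines LnCaP-abl and LAPC4-CR differed from the castration-resistant line VCaP-CR, while their parents did not differ that way. A gene was taken when both LnCaP-abl and LAPC4-CR were at least 2-fold above, or both at least 2-fold below, VCaP-CR. It was called diverged when LnCaP and LAPC4 each lay within 2-fold of VCaP (difference absent), or each lay at least 2-fold from VCaP on the opposite side (difference reversed). Of 11334 protein-coding genes tested, 253 diverged, 140 of them higher and 113 lower in LnCaP-abl and LAPC4-CR. The values that chose these genes are the values given below, so they are descriptions and carry no test.

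Total RNA from 6 human prostate cancer cell lines was sequenced, with 1 library per line. LnCaP and LAPC4 (castration sensitive) were grown in RPMI with 10% fetal bovine serum, and VCaP (castration sensitive) in DMEM with 10% fetal bovine serum. LnCaP-abl, LAPC4-CR and VCaP-CR (castration resistant) all grew in RPMI with 10% charcoal-stripped serum, which is depleted of steroid hormones, and B27 supplement, and no line had any further treatment. The 3 resistant libraries thus shared 1 medium, whereas VCaP differed from the other parents in basal medium. Line and medium thus cannot be told apart in the parental contrast. Each change from parent to resistant line also went with a change of serum and supplement, and in the VCaP pair of basal medium. The state of the line and the medium cannot be told apart in these changes, nor in the difference between the contrasts.

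Each resistant line is a single culture lineage with 1 library, so no value has a replicate. The spread used in the p-values is that between LnCaP and LAPC4 lines, except in 1 fit with the line as a block. There it is how far the changes from parent to resistant line differ between the LnCaP and LAPC4 pairs. Levels are given as scaled FPKM, the deposited fragments per unit of gene length and library total divided by a factor per library. Differences are on the scale log2(scaled FPKM + 1), on which 1 is 2-fold and on which changes of genes at low levels are understated.

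Androgen signalling in luminal prostate cells drives secreted kallikreins and other secretory and transport genes. Castration-resistant cells grow where the steroid is scarce, and lines reach that state with different levels of androgen-driven genes. VCaP carries a fusion that puts the transcription factor ERG under an androgen-driven promoter, which makes ERG a check of the labels.

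As such a check, ERG, in scaled FPKM, reached 16.9 in VCaP and 5.46 in VCaP-CR, and did not exceed 0.186 in any LnCaP or LAPC4 line. Total counts ran from 8661337 to 22433655 per library. The share of counts in protein-coding genes was 77.43% in LnCaP-abl and 79.49% in LAPC4-CR against 67.98% in VCaP-CR, and from 62.76% to 68.27% in the parents. Of 15 markers of luminal epithelium, 10 were at 1 scaled FPKM or more in every library, and of these KRT8, KRT18, CDH1, EPCAM and FOXA1 were at 13.4 or more. GATA3 was under 1 in every library, KRT7 and MUC1 in every library but LAPC4-CR, CLDN3 in LnCaP-abl, and TFF3 in LAPC4 and LAPC4-CR. HOXB13 was at 1.60 in LAPC4-CR against 31.3 in LAPC4. Of 13 immune and endothelial markers, 10 were under 1 scaled FPKM in every library. The summed level of 22 mesenchymal markers was 56.8 scaled FPKM in VCaP-CR and 10.6 to 29.0 elsewhere, and 50.1 of the VCaP-CR sum came from LUM, with VIM at 0.239 and COL1A1 at 0.256.

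The first question was how many differences among the resistant lines were already there among the parents. In the resistant contrast 663 genes (5.85% of those tested) were higher and 670 (5.91%) lower in both LnCaP-abl and LAPC4-CR. Of the 663 higher genes, 231 (34.8%) were also higher in both parents, 292 had a mixed parental pattern, 138 had no parental difference of 2-fold and 2 were reversed. Of the 670 lower genes, 360 (53.7%) were also lower in both parents, 197 were mixed, 111 had no parental difference of 2-fold and 2 were reversed. Between the parents themselves 462 genes (4.08%) were higher and 599 (5.28%) lower in both LnCaP and LAPC4 than in VCaP. The diverged genes were thus 1.24% of the tested genes in the higher direction and 0.997% in the lower direction. The median contrast over all tested genes was 0.13 in the resistant lines and 0.05 in the parents. Among members the median parental contrast was 0.54 for the higher and -0.45 for the lower genes. Many thus leaned the same way in the parents, under the 2-fold limit. Both parental differences were under 0.5 (log2) in 27 of the 140 higher and 25 of the 113 lower members. The contrasts differed by at least 1 in both the LnCaP and LAPC4 lines in 24 higher and 49 lower members.

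The balance of directions depended on the scaling. With factors from protein-coding genes alone, 94 genes diverged higher and 159 lower, and with the deposited FPKM left unscaled the counts were 200 and 95. These scalings moved the median resistant contrast over all genes by -0.11 and 0.24. Of the members, 8 higher and 16 lower genes met the rule under both scalings and under both other pseudocounts tried. The higher ones included ASPH, DDR1, ELOVL6, ID1, MRPL41, PPA2 and PSME2. The lower ones were ABCC4, DSG1, EPYC, FAM133A, GPR149, H2AFY2, IFT57, KLK4, PAPSS1, PFKP, PI15, POTEI, PRAC, RP11-758M4.1, RPLP0 and SLC45A3. Members outside these 8 and 16 lost their call under some of these settings, also where the text below does not repeat it.

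**Figure D1:**
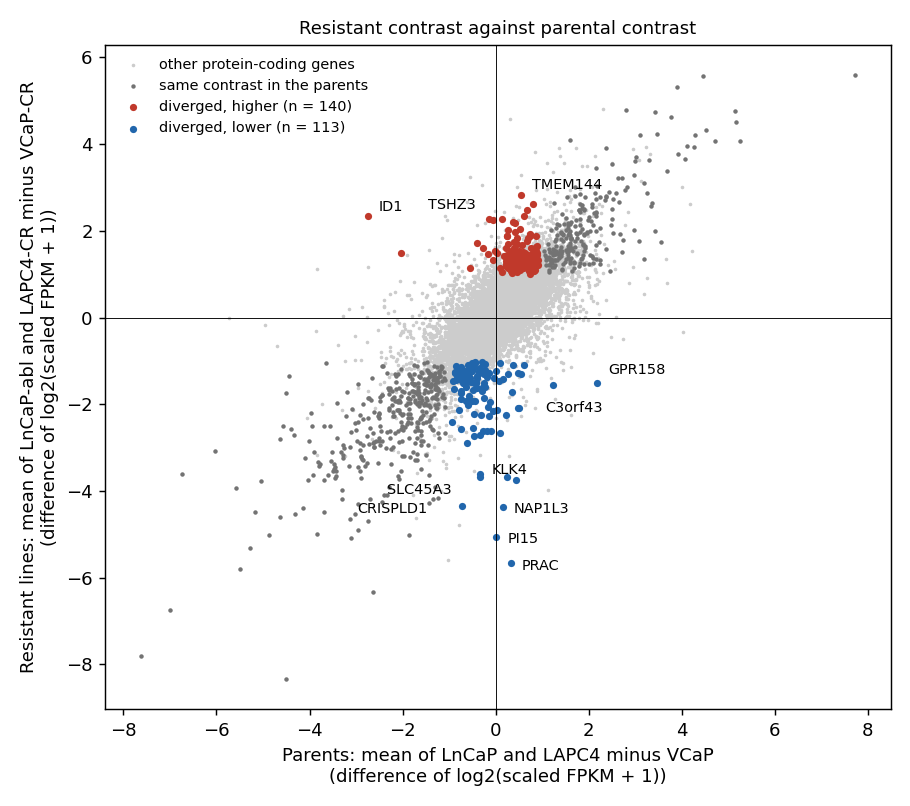
Mean contrast of each of 11334 protein-coding genes in the resistant lines (y axis) against the parents (x axis), both as differences of log2(scaled FPKM + 1). Diverged genes (140 higher in red, 113 lower in blue) lie at least 1 from 0 on the y axis. Apart from the reversed genes, they lie within 1 of 0 on the x axis. Their median on the x axis was 0.54 for the higher and -0.45 for the lower genes. ID1 and GPR158 lie on the opposite side of 0 in the parents.

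The change from parent to resistant line shows which library carried a divergence. Among the higher genes, the median change from parent to resistant line was 0.55 in the LnCaP pair, 0.43 in the LAPC4 pair and -0.31 in the VCaP pair, and in 90 of 140 no single pair moved 2-fold in the direction that makes the divergence. Among the lower genes the medians were -0.50, -0.49 and 0.49, and 49 of 113 had no pair past 2-fold. Over all tested genes the medians were 0.08, 0.02 and -0.01. By the rule, the LnCaP and LAPC4 pairs each changed more in the member's direction than the VCaP pair. The signs of the medians are not fixed by it, but members were chosen on these same values, so the medians are a description only.

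VCaP-CR was at least 2-fold above VCaP in 29 of the 113 lower genes, and at least 2-fold below VCaP in 11 of the 140 higher genes. Both other pairs moved 2-fold in 14 lower and 14 higher genes. Over all tested genes, 2.12% were 2-fold higher and 1.94% 2-fold lower in VCaP-CR than in VCaP, against 7.25% and 4.04% for LnCaP-abl and 6.16% and 4.69% for LAPC4-CR. The level of a typical lower member was 7.34 scaled FPKM in VCaP-CR (median over the 113 genes), against 1.28 in LnCaP-abl, 1.37 in LAPC4-CR and 3.28 to 3.72 in the parents.

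**Figure D2:**
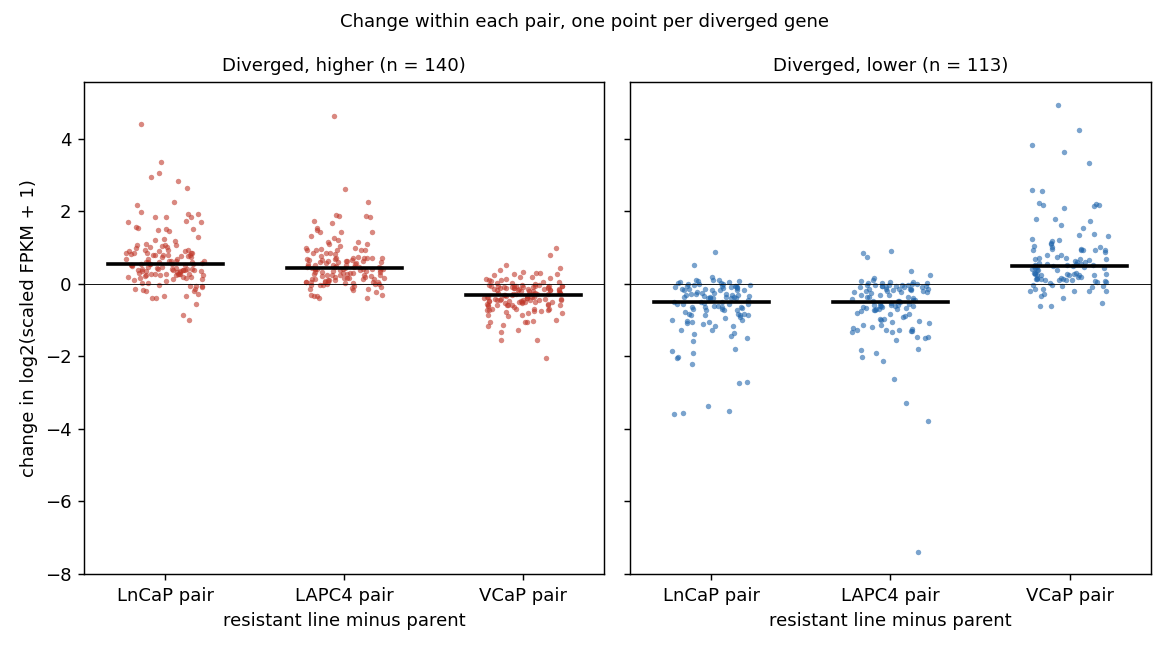
Change from parent to resistant line in each pair, on the scale log2(scaled FPKM + 1), with 1 point per diverged gene and a bar at the median. The VCaP pair has its largest rises among the lower genes, up to 4.95 for PI15, and the LnCaP and LAPC4 pairs have theirs for ID1 among the higher genes.

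ID1, an inhibitor of basic helix-loop-helix transcription factors and a target of bone morphogenetic protein signalling, was the member with the largest difference between the contrasts in the higher direction. It lies on chromosome 20, 29656747 to 29657979 in hg18 (ENSG00000125968). Its level was 4.64 scaled FPKM in LnCaP, 3.70 in LAPC4 and 33.5 in VCaP, and it was 118 in LnCaP-abl (95% Poisson interval 113 to 124), between 112 and 120 in LAPC4-CR (its interval) and 22.2 in VCaP-CR. The order of the lines was thus turned over: the parents LnCaP and LAPC4 were below VCaP by 2.61 and 2.87 (log2 differences of -2.61 and -2.87), and their resistant lines were above VCaP-CR by 2.36 and 2.33. The LnCaP-abl and LAPC4-CR values rested on 1725 and 3547 counts, and their exact Poisson intervals overlapped each other and lay apart from those of the other 4 libraries.

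The other ID genes, which share the helix-loop-helix domain and lack a DNA-binding region, kept only part of this pattern. ID3 was at 4.93 in LnCaP, 7.54 in LAPC4 and 46.3 in VCaP, and at 28.4 in LnCaP-abl, 126 in LAPC4-CR and 26.4 in VCaP-CR (scaled FPKM). ID2 was at 3.43, 5.55 and 25.2 in those parents and at 13.8, 76.5 and 22.1 in their resistant lines. ID2 and ID3 were thus at least 2-fold above VCaP-CR in LAPC4-CR but not in LnCaP-abl, and neither is a member. ID4 was at 0.830 in LnCaP-abl and 82.6 in LAPC4-CR, and LnCaP-abl was below VCaP-CR by a log2 difference of -5.81. The family was looked at after its values were seen. Over the 4 genes, the member ID1 included, the median contrast was 0.85 in the resistant lines and -2.51 in the parents. Both signs were the same under both other scalings. The mean resistant contrast was below 0 in 1 of the 4 genes, so the median does not describe each of them.

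Of 21 tested genes of the TGF-beta and bone morphogenetic protein pathways, 3 were higher and 3 lower in the resistant contrast, beside 5.85% and 5.91% of all tested genes. ID1 and TGFBR3 diverged, both higher, beside 1.24% of all tested genes. TGFBR3, a co-receptor that presents ligands, was at 2.10 scaled FPKM in LnCaP, 2.20 in LAPC4 and 0.732 in VCaP, and at 4.53, 2.22 and 0.454 in LnCaP-abl, LAPC4-CR and VCaP-CR. Its parental differences (0.84 and 0.89) lay just under the 2-fold limit, so the call turns on that limit. The receptor-regulated SMAD1 and the common SMAD4, which stand outside the list and were picked after their values were seen, diverged in opposite directions. SMAD1 was at 4.73 in LnCaP-abl and 4.80 in LAPC4-CR against 0.977 in VCaP-CR, with 1.87 to 2.91 in the parents. SMAD4 was at 3.97 and 5.35 against 13.7 in VCaP-CR, with 4.37 to 9.02 in the parents.

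The 250 bases before the ID1 start (RefSeq, GRCh38.p14, chr20:31605039-31605288, plus strand) are shown because ID1 is the reversed member with the deepest counts. Capitals mark TGTTCT, the reverse complement of AGAACA, which is the core of an androgen response half-site.

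ID1: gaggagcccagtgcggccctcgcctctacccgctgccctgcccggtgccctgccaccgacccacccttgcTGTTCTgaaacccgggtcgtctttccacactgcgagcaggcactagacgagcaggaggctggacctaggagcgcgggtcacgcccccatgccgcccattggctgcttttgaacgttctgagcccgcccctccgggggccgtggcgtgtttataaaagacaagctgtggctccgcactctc

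The motif AGAACA, on either strand, was in 12.4% of the 27305 RefSeq windows of this length, so its presence describes these letters only. In the longer RefSeq windows that reach 50 bases past the start, it was found in 8.7% of 9159 tested genes with a matched promoter, 13.2% of 106 higher members and 9.0% of 89 lower members. The inverted repeat to which a receptor dimer binds, searched on both strands with 3 free bases between the arms, was in 15 of the 9159, among them MAP3K6 of the higher members. No AGAACA was in the windows of the 4 matched androgen-induced members.

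ELOVL6, which elongates saturated and monounsaturated fatty acids, followed ID1 among the higher genes (chromosome 4, 111186451 to 111339804 in hg18). It was at 5.30 scaled FPKM in LnCaP, 10.2 in LAPC4 and 8.22 in VCaP, and at 22.8 in LnCaP-abl, 68.1 in LAPC4-CR and 7.41 in VCaP-CR. VCaP-CR was close to VCaP, and the other resistant lines were above every parent. EGF, the epidermal growth factor, lies 33.6 kb from ELOVL6 with no tested gene between them and also diverged. EGF was at 1.25, 2.11 and 0.667 in LnCaP, LAPC4 and VCaP at 4.51 and 0.580 in LAPC4-CR and VCaP-CR, and between 12.2 and 13.9 (95% Poisson interval of 944 counts) in LnCaP-abl. It was the only one of 8 tested ERBB ligand and receptor genes to diverge, beside 1.24% of all tested genes, since ERBB2 and ERBB3 were already higher in both parents and EGFR was mixed. The call of EGF was lost with a pseudocount of 0.25 or 5 and with unscaled FPKM.

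In 8 of the 12 leading higher genes, ID1 and ELOVL6 included, LnCaP-abl and LAPC4-CR were each at least 2-fold above their own parent while VCaP-CR was within 2-fold of VCaP. ASPH, a hydroxylase of aspartate residues in epidermal growth factor-like domains, was at 10.3 scaled FPKM in LnCaP, 10.0 in VCaP, 13.4 to 14.5 in LAPC4 (95% Poisson interval) and 9.78 in VCaP-CR, and at 35.5 in LnCaP-abl and 42.3 in LAPC4-CR. TSHZ3, a zinc finger transcription factor, was at 0.210 to 0.317 in the parents and 0.327 in VCaP-CR, and at 9.20 and 2.91 in LnCaP-abl and LAPC4-CR. NEDD4, a ubiquitin ligase, was at 1.08 to 1.57 in the parents, 1.12 in VCaP-CR, 5.16 in LnCaP-abl and 4.63 in LAPC4-CR. For these 3 genes the parents and VCaP-CR formed 1 low group that did not overlap the other resistant lines.

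TMEM144, a membrane protein, was at 1.29 to 3.21 scaled FPKM in the parents and 1.85 in VCaP-CR, and at 42.6 in LnCaP-abl and 8.43 in LAPC4-CR. HOXC13, a homeobox factor, was at 0.923 to 2.48 in the parents, 0.895 in VCaP-CR, 13.7 in LnCaP-abl and 8.36 in LAPC4-CR. ZNF703, a zinc finger corepressor, was at 1.31 to 2.32 in the parents, 0.801 in VCaP-CR, 5.99 in LnCaP-abl and 8.68 in LAPC4-CR. LnCaP-abl was the highest library for TMEM144 and HOXC13, and LAPC4-CR for ZNF703. The call of TMEM144 was lost with a pseudocount of 0.25 or 5 and with unscaled FPKM. That of HOXC13 was lost with a pseudocount of 0.25 and with unscaled FPKM, and that of ZNF703 with a pseudocount of 5.

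In 3 of the 12 leading higher genes VCaP-CR was itself more than 2-fold below VCaP while the other resistant lines were within 2-fold of their own parents. PRELID1, a mitochondrial lipid transfer protein, was at 20.7 to 31.2 scaled FPKM in the parents, 23.1 in LnCaP-abl and 23.8 in LAPC4-CR, and at 10.0 in VCaP-CR. CPNE2, a calcium-dependent membrane-binding protein, was at 3.47 to 5.29 in the parents, 4.36 and 8.70 in LnCaP-abl and LAPC4-CR, and 0.830 in VCaP-CR. DPY19L1, a relative of C-mannosyltransferases, stood outside both patterns. It was at 3.64 in VCaP and 1.26 in VCaP-CR, at 1.38 in LnCaP and 4.37 in LnCaP-abl, and at 4.24 in LAPC4 and 9.31 in LAPC4-CR. Its changes passed 2-fold in the VCaP and LnCaP pairs, and the LAPC4 pair was just under it at 0.98 (log2). The call of DPY19L1 was lost with a pseudocount of 0.25 or 5 and with factors from protein-coding genes.

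**Figure D3:**
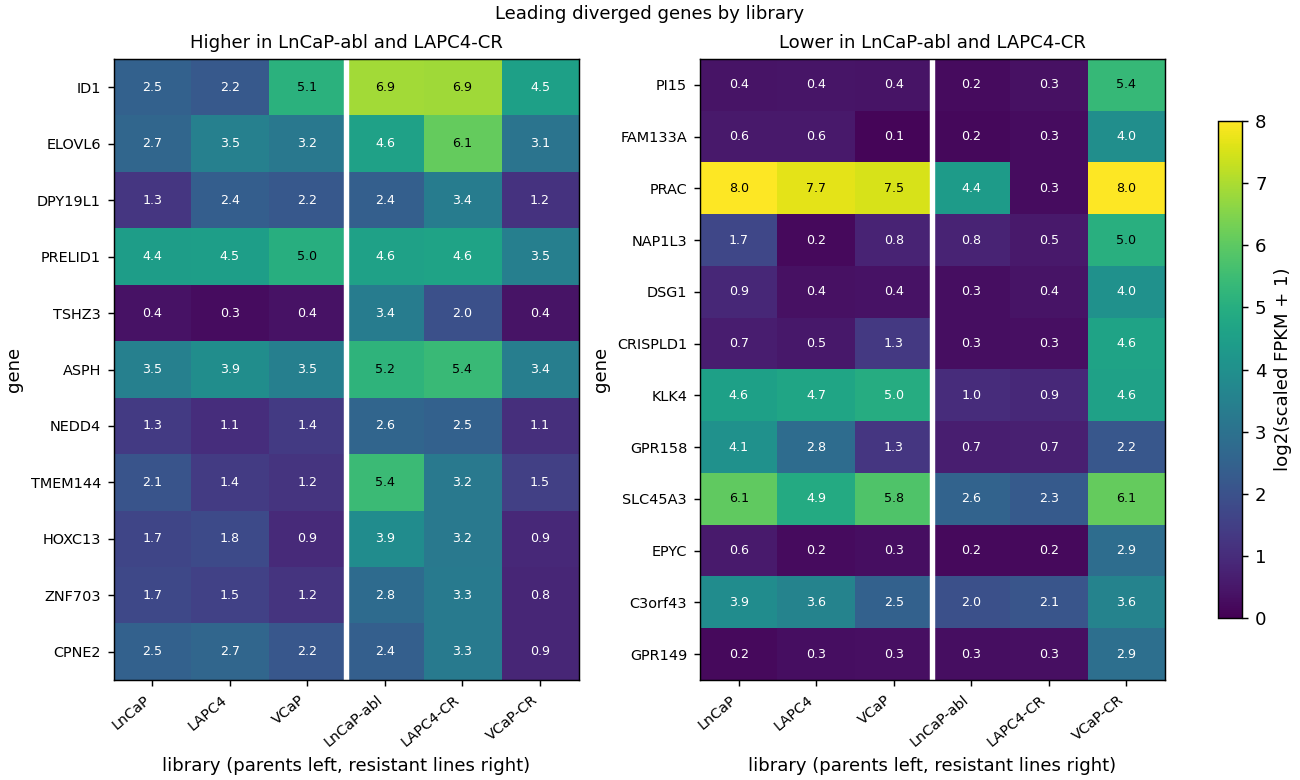
Levels of 11 of the 12 leading higher (left) and of the 12 leading lower (right) diverged genes in the 6 libraries, as log2(scaled FPKM + 1), with 1 column per library and the value in each cell. Parents stand left of the white line and resistant lines right of it; the right panel holds genes at high level in VCaP-CR alone, such as PI15, and genes at low level only in LnCaP-abl and LAPC4-CR, such as KLK4.

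VDR and HSD11B2 are higher members picked for their known roles after their values were seen, and no list stands behind them. VDR, the vitamin D receptor, was at 4.99 in LnCaP-abl and 2.86 in LAPC4-CR against 0.780 in VCaP-CR, with 1.96 to 3.48 scaled FPKM in the parents. HSD11B2, which inactivates cortisol, was at 6.12 and 4.77 against 1.19, with 3.54 to 6.38 in the parents. For both genes VCaP-CR was the lowest of the 6 libraries, and both calls were lost with a pseudocount of 5.

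Of the 12 leading lower genes, 7 were high in VCaP-CR alone, with VCaP-CR at least 2-fold above VCaP, and 4 were low in LnCaP-abl and LAPC4-CR, each at least 2-fold below its own parent. The leading gene of the first kind was PI15, a secreted protease inhibitor of the cysteine-rich secretory protein family (chromosome 8, 75899327 to 75929819 in hg18, ENSG00000137558). It was at 0.332 scaled FPKM in LnCaP, 0.357 in LAPC4, 0.329 in VCaP, 0.177 in LnCaP-abl and 0.270 in LAPC4-CR, and at 39.9 in VCaP-CR. The VCaP-CR level rested on 4586 counts (95% Poisson interval 38.8 to 41.1 scaled FPKM), against 15 to 48 counts in the other libraries. CRISPLD1, a member of the same protein family, lies 129.5 kb further along chromosome 8 with no tested gene between them. CRISPLD1 was at 24.1 scaled FPKM in VCaP-CR, 1.49 in VCaP and 0.223 to 0.570 in the other 4 libraries. The call of CRISPLD1 was lost with a pseudocount of 0.25. RP11-758M4.1, 1.2 kb before PI15, was at 6.56 in VCaP-CR and 0.233 to 0.633 elsewhere, and because it adjoins PI15 and strand is not given, reads of the 2 genes may not be separable.

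A second neighbouring pair lies on chromosome X, where NAP1L3 (92812585 to 92815223 in hg18), a nucleosome assembly protein relative, and FAM133A (92815668 to 92853929) are 445 bases apart. NAP1L3 was at 32.1 scaled FPKM in VCaP-CR, 2.29 in LnCaP and 0.147 to 0.737 in the other 4 libraries. FAM133A was at 14.5 in VCaP-CR and 0.0897 to 0.476 elsewhere. In VCaP-CR both genes were thus far above every other library. The call of NAP1L3 was lost with a pseudocount of 0.25 and with unscaled FPKM. The 250 bases before each start (RefSeq, GRCh38.p14) are shown because the genes move together and face away from each other, NAP1L3 at chrX:93673579-93673828 on the minus strand and FAM133A at chrX:93673956-93674205 on the plus strand. Capitals mark CG, the dinucleotide that can carry DNA methylation.

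NAP1L3: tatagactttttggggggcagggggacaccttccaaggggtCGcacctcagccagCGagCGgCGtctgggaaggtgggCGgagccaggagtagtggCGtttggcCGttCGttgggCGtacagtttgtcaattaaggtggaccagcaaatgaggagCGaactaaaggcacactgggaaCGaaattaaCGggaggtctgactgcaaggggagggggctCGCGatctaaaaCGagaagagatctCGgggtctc
FAM133A: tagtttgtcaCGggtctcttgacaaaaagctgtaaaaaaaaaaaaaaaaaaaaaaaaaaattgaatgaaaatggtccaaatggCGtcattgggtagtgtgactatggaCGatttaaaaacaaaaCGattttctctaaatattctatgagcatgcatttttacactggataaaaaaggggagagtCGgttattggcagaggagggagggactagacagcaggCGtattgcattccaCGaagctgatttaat

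The NAP1L3 window holds 16 CG and the FAM133A window 7, against a median of 11 over the 27305 RefSeq windows. As many or more CG were in 40.8% of windows for NAP1L3 and in 58.4% for FAM133A. DNA methylation was not measured here.

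DSG1, EPYC and GPR149 were also at a high level in VCaP-CR alone. DSG1, a desmosomal cadherin of the epidermis, was at 15.4 scaled FPKM in VCaP-CR and 0.225 to 0.864 elsewhere. EPYC, a small proteoglycan of cartilage, was at 6.28 in VCaP-CR (182 counts) and 0.141 to 0.479 elsewhere. GPR149, an orphan receptor, was at 6.60 in VCaP-CR (246 counts) and 0.139 to 0.264 elsewhere. In each of them the other 5 libraries, VCaP included, were under 1 scaled FPKM. LUM, a proteoglycan of the same family as EPYC, was at 50.1 in VCaP-CR and 3.94 in VCaP. It was thus already higher in VCaP than in the other parents. POTEI was at 7.71 in VCaP-CR and 0.385 to 1.35 elsewhere, and its near-identical copies make that value uncertain.

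Other receptors and enzymes with this pattern, picked after their values were seen, were PTGER2, KISS1R and MEP1A. PTGER2, a prostaglandin E2 receptor, was at 6.60 scaled FPKM in VCaP-CR, 0.785 in VCaP and 0.130 to 0.313 elsewhere. KISS1R, the kisspeptin receptor, was at 7.18 in VCaP-CR, 0.818 in VCaP and 0.238 to 0.665 elsewhere. MEP1A, a secreted and membrane-bound metalloprotease of gut and kidney, was at 7.74 in VCaP-CR, 0.848 in VCaP and 0.146 to 0.214 elsewhere. All 3 were low in VCaP and at least 6.60 in VCaP-CR, and all 3 calls were lost with a pseudocount of 0.25.

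Of 8 tested genes of the neuroendocrine list, 5 were lower in the resistant contrast, beside 5.91% of all tested genes, and SYP alone diverged, beside 0.997%. The call of SYP was lost with a pseudocount of 5 and with unscaled FPKM. SYP, synaptophysin of synaptic vesicles, was at 2.53 scaled FPKM in VCaP-CR, above VCaP by 0.55 on the log2 scale, and at 0.617 to 0.744 in the LnCaP and LAPC4 lines. CHGA, SCG3 and VGF were already lower in LnCaP and LAPC4 than in VCaP, and CHGB was mixed. CHGA was at 21.6 in VCaP-CR, 2.37 in VCaP and 0.218 to 0.474 elsewhere. The summed level of the 20 neuroendocrine markers was 105 scaled FPKM in VCaP-CR and 18.6 to 54.9 in the other libraries, and its part in the divergence of other genes was not tested. In such bulk libraries more cells of a type and more RNA per cell cannot be told apart.

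Androgen-induced genes were among those low in LnCaP-abl and LAPC4-CR. Of 30 tested genes of the androgen-induced list, 17 were lower in the resistant contrast and 0 higher, beside 5.91% and 5.85% of all tested genes. Of these 17, 7 were already lower in both parents, 4 were mixed and 6 diverged (ABCC4, ADAM7, C1orf116, KLK4, SLC45A3 and ZBTB16). The median contrast of the list was -1.89 in the resistant lines and -0.46 in the parents, and both medians stayed below 0 under the other scalings. The median change from parent to resistant line was -1.42 in the LnCaP pair, -1.21 in the LAPC4 pair and -0.33 in the VCaP pair.

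KLK4, a secreted kallikrein protease of the prostate (chromosome 19, 56101420 to 56105806 in hg18), was at 22.5 scaled FPKM in LnCaP, 25.3 in LAPC4, 30.3 in VCaP and 22.7 in VCaP-CR. It was at 1.00 in LnCaP-abl (16 counts) and 0.895 in LAPC4-CR (30 counts), and the 4 other libraries lay close together far above them. SLC45A3, the membrane transporter prostein of luminal prostate cells (chromosome 1, 203893602 to 203916210), was at 65.8, 28.9, 55.0 and 67.6 in LnCaP, LAPC4, VCaP and VCaP-CR, and at 4.86 and 3.83 in LnCaP-abl and LAPC4-CR. ABCC4, an efflux transporter, was at 15.9 to 23.4 in the parents, 18.4 in VCaP-CR, 5.45 in LnCaP-abl and 0.712 in LAPC4-CR. For these 3 genes LnCaP-abl and LAPC4-CR lay below every parent, and VCaP-CR did not.

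ZBTB16, a zinc finger repressor induced by steroid receptors, was at 3.85 to 4.99 scaled FPKM in the parents, 2.92 in VCaP-CR, 0.199 in LnCaP-abl and 0.214 in LAPC4-CR. ADAM7, a metalloprotease-like protein of the epididymis, was at 1.45 to 6.17 in the parents, 2.13 in VCaP-CR, 0.0943 in LnCaP-abl (5 counts) and 0.233 in LAPC4-CR. C1orf116, an androgen-responsive gene, was at 9.72 to 14.1 in the parents, 20.2 in VCaP-CR, 9.43 in LnCaP-abl and 1.85 in LAPC4-CR. ADAM7 had the smallest difference between the contrasts of the 6 (-0.72 in the LAPC4 lines), and its call was lost with a pseudocount of 0.25 or 5 and with unscaled FPKM. C1orf116 met the limit in LnCaP-abl by a difference of -1.02, and its call was lost with a pseudocount of 5 and with unscaled FPKM.

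KLK3, which encodes prostate-specific antigen, is not a member. It was at 610 scaled FPKM in LnCaP, 108 in LAPC4 and 327 in VCaP, and at 0.649 in LnCaP-abl, 2.02 in LAPC4-CR and 19.1 in VCaP-CR. KLK3 was thus far below the parent in all 3 resistant lines, unlike KLK4. It was still lower in LnCaP-abl and LAPC4-CR than in VCaP-CR, by log2 differences of -3.61 and -2.74, and its parents were mixed. The 6 tested androgen-repressed genes held 0 higher and 2 lower genes, beside 5.85% and 5.91% of all tested genes, and none diverged.

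**Figure D4:**
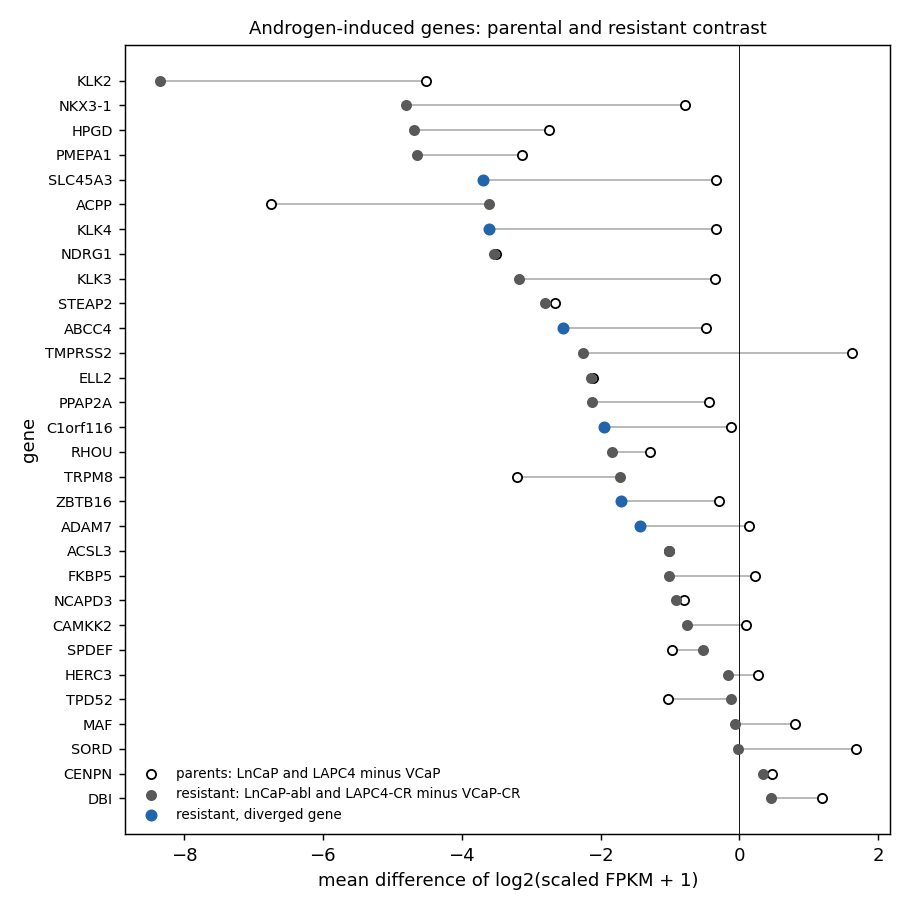
Mean contrast of the 30 tested androgen-induced genes in the parents (open circles) and in the resistant lines (filled circles), as differences of log2(scaled FPKM + 1), ordered by the resistant contrast. The 6 diverged genes (blue) have an open circle near 0 and a filled circle to the left of it.

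PRAC, a small nuclear protein of prostate and distal gut (chromosome 17, 44154083 to 44154883 in hg18), had the widest range of the lower genes. It was at 255 scaled FPKM in LnCaP, 204 in LAPC4, 181 in VCaP and 255 in VCaP-CR. It was at 20.1 in LnCaP-abl and at 0.210 in LAPC4-CR, where only 2 counts were seen. HOXB13, the homeobox gene beside PRAC, was at 1.60 in LAPC4-CR as well but at 65.8 in LnCaP-abl, so HOXB13 does not meet the rule.

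GPR158 and C3orf43 were the lower genes whose parental difference was reversed. GPR158, a receptor of the nervous system (chromosome 10, 25503997 to 25931161 in hg18), was at 15.6 scaled FPKM in LnCaP and 6.11 in LAPC4 against 1.40 in VCaP. It was at 0.589 in LnCaP-abl and 0.613 in LAPC4-CR against 3.54 in VCaP-CR. C3orf43 was at 13.8 and 10.9 against 4.65 in the parents, and at 2.90 and 3.29 against 9.86 to 12.3 (95% Poisson interval of 330 counts) in the resistant lines. For both genes the LnCaP and LAPC4 lines were below their parents and VCaP-CR was above VCaP. AL353354.1, the other reversed gene in the higher direction, rested on 2 counts in each library where it was seen and on 0 elsewhere, so its call rests on too few counts to be read.

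FZD5, a Wnt receptor, was the 1 diverged gene of 18 tested Wnt pathway genes, beside 0.997% of all tested genes lower and 1.24% higher. It was at 2.74 to 4.63 scaled FPKM in the parents, 7.07 in VCaP-CR, 2.33 in LnCaP-abl and 1.02 in LAPC4-CR. In 15 of the 21 gene lists with tested genes no member diverged, beside 2.23% of all tested genes in both directions, a share at which a short list may hold none. Among these 15 were the lists of proliferation, interferon-stimulated, ETS-linked, steroid metabolism, IGF axis and cancer-testis genes.

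Cytosolic ribosomal protein genes, a family looked at after its values were seen, supplied 11 of the lower members, beside 0.997% of all tested genes diverged lower (RPL17, RPL27, RPL32, RPL37A, RPL4, RPLP0, RPS12, RPS20, RPS25 and RPS29 among them). Of 86 tested genes of the family, 29 were lower and 1 higher in the resistant contrast, beside 5.91% and 5.85% of all tested genes, and 15 of these had the same call in the parents. The family's median contrast was -1.04 in the resistant lines and -0.69 in the parents, so its members sit near the 2-fold limit. RPLP0 was at 454, 513 and 863 scaled FPKM in LnCaP, LAPC4 and VCaP, and at 317, 329 and 825 in LnCaP-abl, LAPC4-CR and VCaP-CR. With unscaled FPKM only 1 of the 11 family members, RPLP0, kept its call, and with factors from protein-coding genes 10 did. The medians stayed below 0 under both other scalings. Many pseudogene copies of these genes share reads with them, so their single values are uncertain.

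Some members lay at the limit itself. PLIN3 and RDBP were the higher genes just inside it, with a smaller resistant difference of 1.00 each, and PDGFB (1.00) and MOCS2 (0.99) lay just outside. SNRPF and RPL37A (-1.01) were just inside among the lower genes and TMTC2 and TM4SF4 just outside, with LAPC4-CR the nearer line for SNRPF and TMTC2 and LnCaP-abl for RPL37A and TM4SF4.

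The members' share of the tested genes differed between chromosomes, which is given as a description. Chromosome 6 held 20 of the higher members, 3.24% of its 618 tested genes, and chromosome 4 held 15, 3.62% of its 414, against 1.24% over all chromosomes. Chromosome X held 13 of the lower members, 3.15% of its 413 tested genes, against 0.997% overall. On chromosome 6, KCTD20 and STK38 are 2.7 kb apart, and STK38, a protein kinase, was at 8.01 scaled FPKM in LnCaP-abl, 18.7 in LAPC4-CR and 2.58 in VCaP-CR.

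Genes that are not members were used to describe these regions. In windows of 20 Mb with at least 40 such genes (117 windows), the median change from VCaP to VCaP-CR was -0.20 or lower in 12 windows, a limit chosen after the values were seen. At the same limit there were 8 windows in the LAPC4 pair and 4 in the LnCaP pair. On chromosome 6 the median was -0.35 over 206 genes from 20000001 to 40000000 and -0.41 over 79 genes from 40000001 to 60000000 (hg18). In the LnCaP pair the medians of those windows were 0.00 and 0.40, and in the LAPC4 pair -0.08 in both. These 12 windows held 12.9% of all tested genes, 31 of the 140 higher members (22.1%) and 9 of the 113 lower members (7.96%). None of them lay on chromosome 4 or X. With unscaled FPKM there were 8 such windows in the VCaP pair, with 8.97% of all tested genes and 20% of the higher members. DNA copy number was not measured in these files, and its part in this was not tested.

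**Figure D5:**
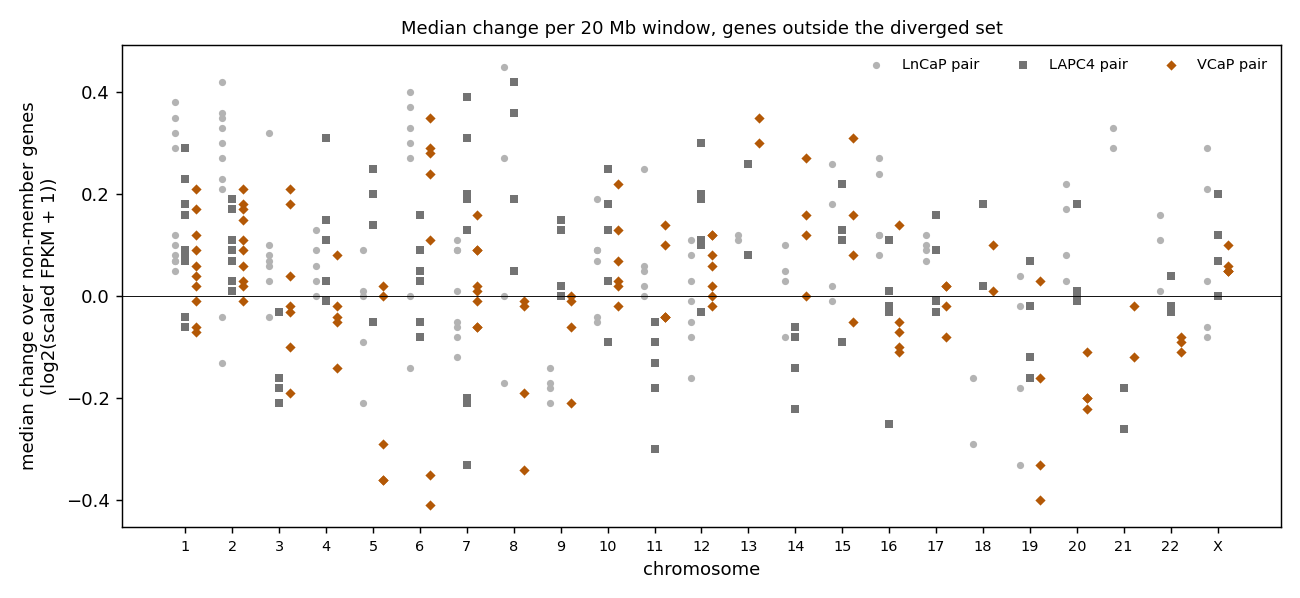
Median change from parent to resistant line over genes outside the diverged set, on the scale log2(scaled FPKM + 1), with 1 point per 20 Mb window and pair, by chromosome. The VCaP pair (diamonds) has windows near -0.40 on chromosomes 6 and 19.

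The whole table was also tested with edgeR's quasi-likelihood test, with LnCaP and LAPC4 lines as stand-ins for replicates and 2 residual degrees of freedom. At an adjusted p under 5%, edgeR called 0 genes in the resistant contrast, 0 in the parental contrast and 0 in the difference between the contrasts. The smallest adjusted p was 0.0939 in the resistant contrast and 1.00 in the difference. At an unadjusted p under 0.05, edgeR had 492 genes higher (4.34%) and 607 lower (5.36%) in the resistant contrast, 351 higher (3.10%) and 510 lower (4.50%) in the parental contrast, and 54 higher (0.476%) and 72 lower (0.635%) in the difference. On the same genes DESeq2 called 189 higher and 281 lower in the resistant contrast and 99 and 186 in the parental contrast. Limma called 2 lower genes in the resistant contrast, ITM2A and KLK2, which are not members, and 0 genes in the parental contrast and in the difference. The difference between the contrasts, which is what divergence means, was therefore not shown by this test for any single gene.

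The same-named lines pair the libraries, and with the line as a block edgeR called 149 genes higher and 401 lower in the resistant contrast. In the difference it called 0 higher and 1 lower, PI15 (log2 fold change -7.56, SE 0.85, adjusted p 0.032). DESeq2 called 2 higher and 11 lower genes in the difference, among them the members ID1, CRISPLD1, DSG1, FAM133A, GPR158, KLK4 and PI15. The rest of these calls, the other higher gene and KLK2 included, were of genes that are not members. For ID1 DESeq2 gave a log2 difference of 5.42 with an adjusted p of 8.1e-06. The fit with the line as a block has 1 residual degree of freedom, so its spread rests on the LnCaP and LAPC4 pairs alone. Since the members were chosen on the same contrasts, the calls and values of these fits describe how far the counts carry the fold rule. They are no separate support for it.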

How the data were processed

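Per the labels' protocols, RNeasy kits gave the total RNA, and the libraries were SOLiD Total RNA-Seq libraries. Per the file headers, the deposited tables give for each of 51698 entries a count and an FPKM value. The authors' counts are whole numbers, and the deposited FPKM was rebuilt within 1% from count, gene length and the file's total for 100% of the 246467 values checked. HTSeq and hg18 are named in the submitters' processing notes, with no role; not given in the sources used here: the aligner, the annotation, strand use and the treatment of reads with several matches. Coordinates of genes are those of the tables, with 1 added to the start.

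Small RNA entries (8775) were left out, protein-coding entries sharing a symbol were summed (8 symbols), and 25 symbols turned into dates were restored from their Ensembl identifiers. FPKM was divided by a median-ratio factor per library (from 11597 genes that reach 1 FPKM in each library; factors 0.847 to 1.109). The 11334 protein-coding genes whose mean scaled FPKM reached 1 were tested, with a pseudocount of 1.

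Groups and pairs came from the labels and line names. Counts were fitted with edgeR 4.0.16 in R 4.3.3 (quasi-likelihood test, TMM, all 16226 genes that passed the filter, no block, Benjamini-Hochberg adjustment). DESeq2 1.42.0, limma 3.58.1, a fit with the line as a block, other pseudocounts, filters, scalings and fold limits, and leaving out libraries were alternatives. The scripts were tested on simulated data. Poisson intervals are exact and cover counting error only.

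The members, the 22 gene lists and the rule for named genes were chosen with earlier results of these data known. The text names the 12 members per direction with the largest difference between the contrasts (the smaller of the LnCaP and LAPC4 lines, at least 20 counts in the highest library), the reversed members, the list members that diverged, the genes next to the limit, and ERG and KLK3. Some genes that this rule takes are not reported here.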

Additional observations from a re-analysis of the deposited data

Results flagged for a closer look

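Genes whose resistant and parental contrasts were each at least 2-fold and in opposite directions in both lines are given by the smaller of the differences between the contrasts, on the scale log2(scaled FPKM + 1). It was 4.97 for ID1 and 3.18 for AL353354.1, both higher in LnCaP-abl and LAPC4-CR than in VCaP-CR and lower in the parents than in VCaP. It was -3.06 for GPR158 and -2.55 for C3orf43, both lower in the resistant lines and higher in the parents. With 1 library per line this change of direction was not tested beyond the fits given above; AL353354.1 rests on 2 counts per library.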

How the results depend on the processing

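The difference between the contrasts was followed for the named genes under the other settings of the fold rule. Genes next to the limit, ERG and KLK3 were left out of this check, and so were the edgeR, DESeq2 and limma fits. No such value took the opposite sign, and 323 of 355 kept their size within counting error. A gene whose LnCaP and LAPC4 lines disagreed in sign was set to 0, which did not count as opposite. The balance of diverged genes turned over: it was 140 higher to 113 lower, but 94 to 159 with factors from protein-coding genes, 43 to 93 with a pseudocount of 5, 19 to 84 with a 4-fold limit and 141 to 170 without a filter. With a pseudocount of 0.25, the resistant contrast had 1000 higher genes and the lower reversed genes were 4. With a pseudocount of 5 it had 200 higher and 314 lower genes, 43 diverged higher, 1 was reversed higher and 0 reversed lower, and the androgen-induced list had 11 lower and 3 diverged genes. Without a filter 170 genes diverged lower. With a mean scaled FPKM of 5 as the minimum, 333 genes were lower, 83 diverged higher and 47 lower, and 1 was reversed in each direction. Unscaled FPKM gave 1108 higher genes. A 4-fold limit gave 89 higher and 228 lower genes, 19 diverged higher, 1 reversed higher and 0 reversed lower, and 8 androgen-induced genes lower. Parents within 0.5 of VCaP left 29 higher and 27 lower diverged genes and 3 of the androgen-induced list. Poisson intervals lying apart left 1 reversed higher gene.

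The share of higher members with the VCaP pair past 2-fold was 7.9%, and it was 0% with a pseudocount of 5 and 4.0% unscaled. With both other pairs past 2-fold it was 10.0%, and 16.3% (pseudocount 5), 36.8% (4-fold) and 24.1% (parents within 0.5). For lower members the VCaP share was 25.7%, and 10.6% (mean of at least 5), 34.7% (unscaled) and 47.6% (4-fold). The share with both other pairs was 12.4%, and 22.3% (pseudocount 0.25), 6.5% (pseudocount 5) and 22.2% (parents within 0.5).

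Leaving out the LnCaP or the LAPC4 pair asks less of a gene by construction. It gave 1585 to 1628 higher and 1158 to 1243 lower genes, 682 to 1053 diverged higher, 467 to 544 diverged lower, 12 to 26 reversed higher and 17 to 21 reversed lower. The shares became 3.5% to 4.2%, 31.1% to 37.0%, 14.3% to 15.2% and 28.1% to 30.0% in the order above, and the androgen-induced list had 9 to 10 diverged genes. Leaving out the VCaP pair leaves no contrast.

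With the line as a replicate block, edgeR called 149 higher and 401 lower genes in the resistant contrast, 74 and 261 in the parental contrast, and 0 and 1 in the difference. DESeq2 called 189 and 281, 99 and 186, and 2 and 11. Limma called 2 lower genes in the resistant contrast. Without a filter edgeR called 6 and 66 in the resistant and 2 and 18 in the parental contrast. The other edgeR settings, each resistant or parental LnCaP or LAPC4 library left out included, called 0 genes. The cause of these changes was not tested.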

Other observations

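HOXB13, a homeobox factor of luminal prostate cells, was at 58.9 scaled FPKM in LnCaP, 43.6 in VCaP and 31.3 in LAPC4. It was at 65.8 in LnCaP-abl, 35.5 in VCaP-CR and 1.60 in LAPC4-CR. MUC1, a mucin, was at 25.3 scaled FPKM in LAPC4-CR and 0.198 to 0.523 in the other 5 libraries. KRT19 was at 136 in LAPC4-CR against 32.5 in LAPC4. These luminal markers separate LAPC4-CR from LnCaP-abl as well as from VCaP-CR.

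GDF15, a stress-induced ligand of the TGF-beta family, was at 163 scaled FPKM in LnCaP, 167 in LAPC4 and 34.7 in VCaP. It was at 7.33 in LnCaP-abl, 1.14 in LAPC4-CR and 1.35 in VCaP-CR. The parental difference from VCaP was thus not found between LAPC4-CR and VCaP-CR. LnCaP-abl was still above VCaP-CR, by a log2 difference of 1.82 against 2.2 between LnCaP and VCaP.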
